A study of Mus musculus with 24 samples.

Results

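Hippocampal RNA of male APP/PS1 mice that had received urolithin A and then lived through a washout was set against that of wild-type mice taken through the same washout. The 2 groups are APP-PS1_UA-WASHOUT, with 5 arrays, and WT_WASHOUT, with 5 arrays, and they make up 10 of the 24 arrays of the series. Arrays were assigned by their titles. APP-PS1_UA-WASHOUT mice carried the transgenes of the line B6.Cg-Tg(APPswe,PSEN1dE9)85Dbo/J, which carry mutations of familial Alzheimer's disease, and were gavaged daily with urolithin A from 2 to 7 months of age. Sources differ on the daily dose, with 200 mg/kg in the protocol of the samples and 20 mg/kg in the text on the series. WT_WASHOUT mice are labelled with the same line but as lacking both transgenes, and were gavaged with water. Gavage then stopped for 1 month in both groups, and their samples are labelled 9 months old. The other arrays used here are APP-PS1_WASHOUT (transgenic, water, washout, n = 3), APP-PS1_UA (transgenic, urolithin A, no washout, n = 4), APP-PS1_CTR (transgenic, water, no washout, n = 3) and WT_CTR (wild type, water, no washout, n = 4), all from male mice, with the groups without washout labelled 8 months old. The contrast therefore changes genotype and treatment together. No wild-type group received urolithin A. The labels number the arrays of a group as replicates without saying more of their origin, so p-values measure the spread between these samples.

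In this mouse line a mouse prion promoter drives both transgenes, mainly in neurons, and amyloid plaques form in cortex and hippocampus. Microglia gather around plaques and switch from a homeostatic programme to a plaque-associated one that depends on the lipid receptor Trem2, while nearby astrocytes become reactive and make more of the filament protein Gfap. Urolithin A is a gut-bacterial product of dietary ellagitannins, known for inducing mitophagy, the removal of damaged mitochondria by autophagy.

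Each level below is the log2 processed signal of a gene's brightest probe minus the array's 75th percentile, so that 0 stands for that percentile. A difference is the mean of APP-PS1_UA-WASHOUT minus the mean of WT_WASHOUT on this log2 scale. It was tested with limma over 35259 genes and unnamed probes, with Benjamini-Hochberg adjustment and a threshold of 0.05. Every gene described with a difference was well above background on all 24 arrays unless stated otherwise.

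The 2 groups lay on different slides, and the slide of the treated arrays stood apart from the other slides. All APP-PS1_UA-WASHOUT arrays were on slide 3 with APP-PS1_WASHOUT, all WT_WASHOUT arrays were on slide 2 with 3 APP-PS1_UA arrays, and slide 1 held the rest. Slide and group cannot be told apart in this comparison. The leading principal component, with 47.2% of the variance, ran from 84.8 to 119.1 on slide 3, from -68.1 to -29.6 on slide 2 and from -53.3 to -33.3 on slide 1. In APP-PS1_UA-WASHOUT, 63.7% to 74.8% of spots were well above background, against 70.5% to 71.6% in WT_WASHOUT, and no array had a saturated spot. Of the 35259 features, 12681 (36.0%) passed the threshold between the 2 groups, of which 8317 (23.6% of all features) were higher and 4364 (12.4%) were lower in the treated arrays. The higher share of those calls was 65.6% after the percentile scaling, 39.1% after quantile scaling and 32.7% in the deposited standardized values, so the balance of directions depends on the scaling. The median difference over all features was 0.05 after the percentile scaling and -0.10 after quantile scaling. Among the 25674 features bright on all 24 arrays, 8395 passed (32.7%), 4588 higher and 3807 lower. APP-PS1_WASHOUT, on slide 3 without urolithin A, gave 9741 calls (27.6%) against the same WT_WASHOUT arrays, 7036 higher and 2705 lower.

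Comparisons within a slide gave far fewer calls. APP-PS1_CTR against WT_CTR on slide 1 gave 55 calls (0.156%), 54 of them higher (0.153%), with the transgenic arrays in array row 2 and the wild-type arrays in row 1. APP-PS1_UA-WASHOUT against APP-PS1_WASHOUT on slide 3 gave 22 (0.0624%). There the water arrays and treated replicate 1 lay in array row 1, and treated replicates 2 to 5 in row 2. Well above background were 73.8% to 76.9% of spots in APP-PS1_WASHOUT, against 63.7% to 69.9% in treated replicates 2 to 5. APP-PS1_WASHOUT against APP-PS1_CTR, which share genotype and water and differ in age, washout and slide (3 against 1), gave 8040 (22.8%). Adding the slide 3 difference to the slide 1 difference gives an estimate of treated APP/PS1 against wild type in which each step lies within a slide. Array row still differs between the groups in both steps, and its part was not tested. This within-slide sum was added after the data were seen, joins animals from before and after the washout, has a larger standard error, and gave 23 calls (0.0652%), 14 of them higher (0.0397%). It is printed below beside the direct difference, as are the genotype difference on slide 1, which shares no array with the direct comparison, and the slide 3 minus slide 1 difference between the water-treated transgenic groups. Of the 54 features higher on slide 1, 52 were also higher in the direct comparison, which is 96.3% of the slide 1 list and 0.625% of the direct list.

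**Figure D1:**
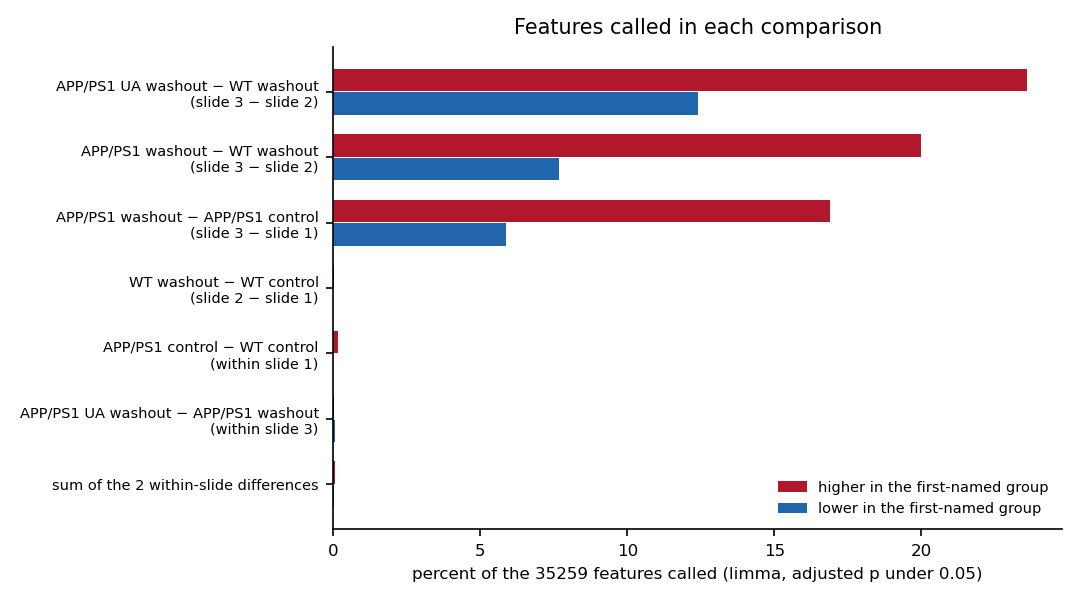
Share of the features tested (percent, horizontal bars) that passed an adjusted p of 0.05 in 7 comparisons, split into those higher and those lower in the group named before the minus sign. Treated APP/PS1 against wild type after washout gave 23.6% higher and 12.4% lower, against 0.153% higher within slide 1.

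The genotype labels were set beside the level of the prion gene. Prnp, the prion protein gene from which the transgene vectors take their promoter, was at 6.89, 7.06, 7.04, 6.90 and 7.00 in APP-PS1_UA-WASHOUT replicates 1 to 5, against 5.60, 5.49, 5.44, 5.60 and 5.52 in WT_WASHOUT replicates 1 to 5. All treated arrays lay above all wild-type arrays, and the spread within each group was small beside the gap. The difference was 1.45 ± 0.08 (SE; 2.73-fold, adjusted p = 3.43e-11), the within-slide sum 1.53 ± 0.13 (adjusted p = 2.46e-06) and the slide 1 difference 1.49, while the transgenic water groups of slides 3 and 1 differed by 0.07. A second, dimmer Prnp probe differed by -0.18 (adjusted p = 0.222 over probes). App, the amyloid precursor gene, ranged from 5.66 to 6.03 in the treated arrays and from 5.60 to 5.86 in the wild-type arrays and did not pass (0.08, adjusted p = 0.498). Whether the App probe or either Prnp probe matches a transgene was not tested.

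Of 15 measured genes of amyloid precursor processing, 1 was higher, which was Prnp, and 2 were lower, where 23.6% and 12.4% of all features were. The 2 lower genes were Mme, which encodes the amyloid-degrading protease neprilysin (-0.50 ± 0.14, adjusted p = 0.00813), and Aph1b, a subunit of gamma-secretase (-0.43 ± 0.12, adjusted p = 0.00785). Both differences had the opposite sign in the within-slide sum, at 0.35 ± 0.24 and 0.14 ± 0.20, and neither sum passed. Mme did not pass when the probes of a gene were averaged. Without WT_WASHOUT replicate 1, 4 genes of the list were lower, and without APP-PS1_UA-WASHOUT replicate 5, 2 were higher.

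Of the 26 lists, plaque-associated microglia had the largest share of members higher in the treated arrays. Of 29 measured genes, 22 were higher and 0 lower in APP-PS1_UA-WASHOUT, where 23.6% of all features were higher and 12.4% lower. The median difference was 0.90 against 0.05 over all features. In 19 of the 29 the 5 treated arrays all lay above the 5 wild-type arrays, which holds for 17.5% of all features. The list's mean level was 0.64, 0.78, 0.82, 1.13 and 0.81 in the treated arrays, against -0.64, -0.73, -0.29, -0.72 and -0.31 in the wild-type arrays, so the groups did not overlap. Its median was 1.06 in the within-slide sum, where 8 genes were higher, 0.93 on slide 1, where 14 were higher, and -0.10 between the transgenic water groups of slides 3 and 1. Without urolithin A, APP-PS1_WASHOUT gave a median of 0.99 against the same WT_WASHOUT arrays. In that comparison 21 of the 29 were higher, as were 20.0% of all features. Apoe, counted among the higher members, differed by 0.03 on slide 1 and by 0.04 ± 0.16 in the within-slide sum (adjusted p = 0.978). In bulk RNA more cells of a type and more RNA per cell cannot be told apart.

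Cst7 encodes cystatin F, an inhibitor of lysosomal proteases made by plaque-associated microglia. Its level was 0.34, 0.80, 0.34, 0.54 and 0.68 in the treated arrays, against -5.47, -5.79, -5.29, -6.50 and -5.79 in the wild-type arrays. Every treated array was far above every wild-type array. The difference of 6.31 ± 0.30 (79.1-fold, adjusted p = 9.41e-12) stood beside a within-slide sum of 6.35 ± 0.51 (adjusted p = 2.2e-06) and a slide 1 difference of 5.92. Itgax, the integrin CD11c, was at -2.28, -1.78, -2.37 and -1.71 in treated replicates 1, 2, 3 and 5, with the spot of replicate 4 left out for its software flag, and at -5.62, -6.21, -4.97, -5.90 and -5.66 in the wild-type arrays. Here too the groups were fully apart. The difference was 3.64 ± 0.27 (12.4-fold, adjusted p = 4.92e-09), with a within-slide sum of 3.45 ± 0.44 (adjusted p = 0.00143).

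Chemokines and receptors of the same programme moved the same way. Ccl3, a chemokine, was at -2.19, -1.71, -1.85, -1.53 and -1.91 in the treated arrays, against -5.19, -5.85, -4.02, -6.18 and -4.91 in the wild-type arrays (3.39 ± 0.32, 10.5-fold, adjusted p = 7.23e-08). The wild-type arrays scattered over more than the treated arrays, without overlap, and the within-slide sum of Ccl3 was 2.86 ± 0.54 (adjusted p = 0.0502). Ccl4, the chemokine beside it, was at -2.47, -2.47, -2.72, -2.13 and -2.29 in treated arrays, against -5.25, -5.47, -4.75, -5.33 and -5.44 in wild-type arrays (2.83 ± 0.24, 7.13-fold, within-slide sum 2.91 ± 0.40, adjusted p = 0.00247). Again no treated array came near a wild-type array. The inhibitory receptor Lilrb4a was 2.13 ± 0.26 higher (adjusted p = 1.54e-06) and the fatty acid receptor Gpr84 1.56 ± 0.15 higher (adjusted p = 1.2e-07).

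Trem2, the receptor on which the programme depends, was at 2.35, 2.74, 2.45, 2.80 and 2.78 in treated arrays, against 1.29, 1.23, 1.52, 1.37 and 1.32 in wild-type arrays. The groups were apart by less than for Cst7 but did not overlap. The difference was 1.28 ± 0.15 (2.42-fold, adjusted p = 7.11e-07), the slide 1 difference 1.09 (adjusted p = 0.00754) and the within-slide sum 1.16 (adjusted p = 0.0896). Its signalling partner Tyrobp was at 1.99, 2.21, 1.84, 2.54 and 2.42 in treated arrays, against 0.96, 0.88, 1.04, 0.95 and 0.99 in wild-type arrays (1.23 ± 0.13, adjusted p = 2.42e-07), with a within-slide sum of 1.30 (adjusted p = 0.0168). The wild-type values of Tyrobp were tightly grouped and all below the treated ones. Cd68, a lysosomal glycoprotein of phagocytes, differed by 1.31 ± 0.13 and had a within-slide sum of 1.21 ± 0.22 (adjusted p = 0.0436). The growth factor gene Igf1 differed by 0.68 ± 0.12 and had a within-slide sum of 1.12 ± 0.20 (adjusted p = 0.0292).

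Outside the lists, the 14 genes with a symbol that passed in the within-slide sum and had the same direction in the direct comparison included Runx1 and Tbxas1. Runx1, a transcription factor of blood and microglial lineages, differed by 1.21 ± 0.10 (adjusted p = 1.53e-08; adjusted p of the sum 0.0233). Tbxas1, thromboxane synthase, differed by 0.90 ± 0.10 (adjusted p = 6.63e-07; sum 0.98 ± 0.17, adjusted p = 0.0233). The 2 comparisons share the treated washout arrays, and genes that passed in the within-slide sum were named after their values were seen. Wdfy1, an adaptor of Toll-like receptor signalling, was the gene lower in both the direct comparison and slide 1, at 0.42, 0.33, 0.06, 0.24 and 0.44 in treated arrays, against 2.30, 2.05, 1.99, 2.31 and 2.10 in wild-type arrays. All treated arrays lay below all wild-type arrays. The difference was -1.85 ± 0.11 (adjusted p = 9.22e-11) and the within-slide sum -1.63 ± 0.18 (adjusted p = 0.00015). Its probes disagreed, since a second one differed by -1.65 and the dimmest by 5.02, although that probe differed by 0.02 on slide 1. The mean of its probes differed by 0.50.

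**Figure D2:**
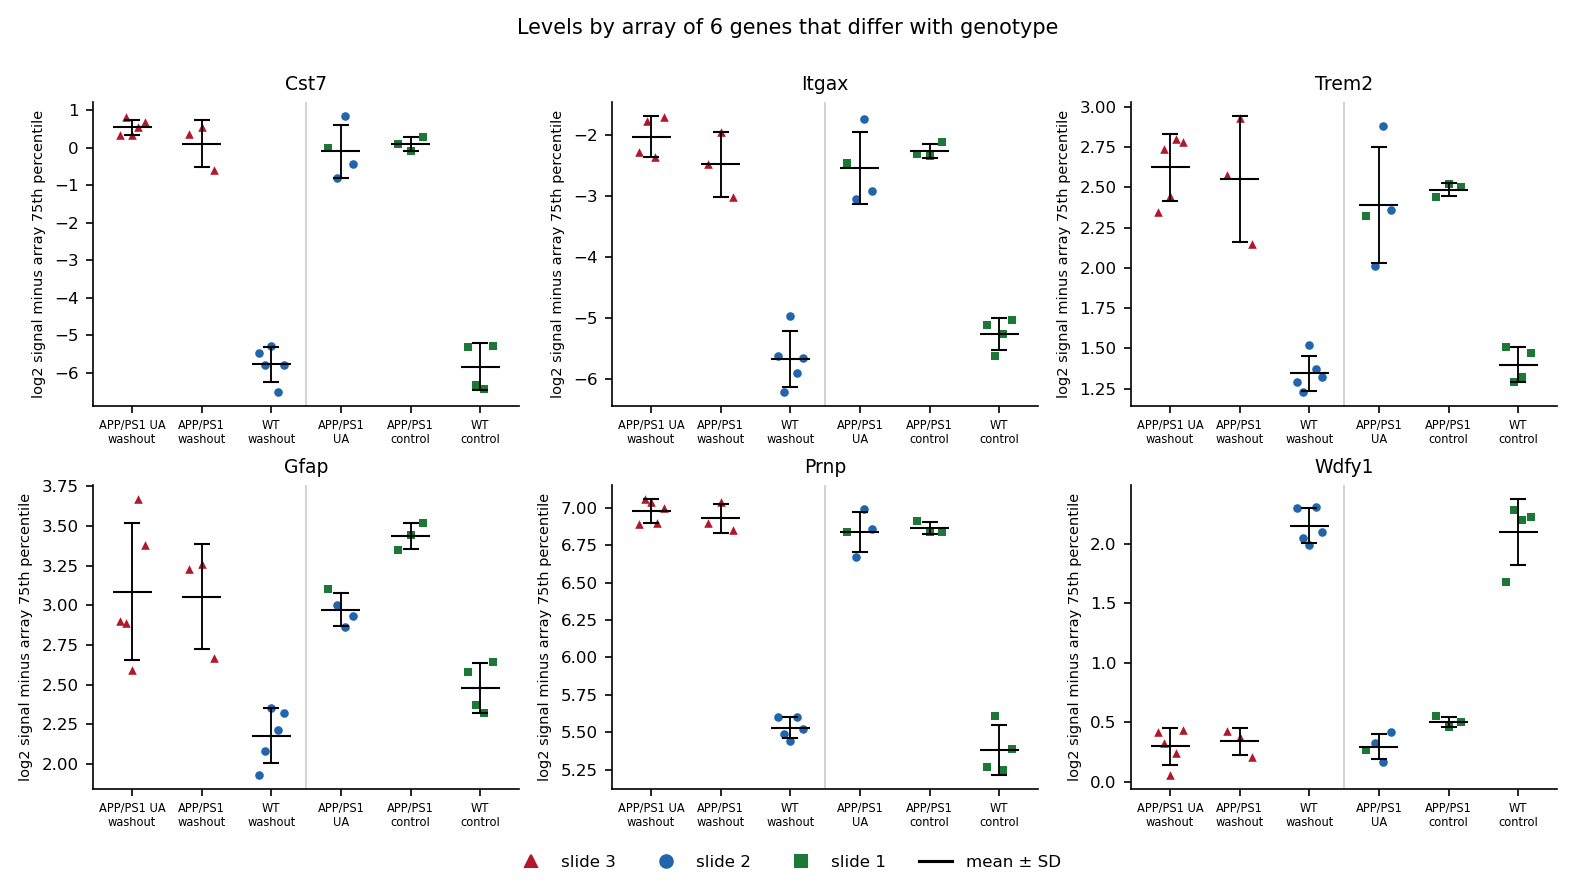
Levels of Cst7, Itgax, Trem2, Gfap, Prnp and Wdfy1 (log2 signal minus the array's 75th percentile, vertical axes) on every array of the 6 groups, with colours and marker shapes for the 3 slides and bars for mean ± SD. Transgenic groups of all slides lie together for Cst7, above -2 on every array, and both wild-type groups lie below -4.

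Homeostatic microglial genes were also higher, by less, where 23.6% of all features were higher and 12.4% lower. Of 16 genes 10 were higher and 0 lower (8 higher and 2 lower in the deposited standardized values), with a median of 0.39, a median of 0.37 in the within-slide sum (0 genes passed) and of 0.29 on slide 1 (1 gene higher). The mean level of the list was 1.24 to 1.53 in treated arrays and 0.81 to 1.03 in wild-type arrays. Fcrls, an Fc receptor-like microglial marker, differed by 1.30 ± 0.12 (adjusted p = 2.73e-08), by 0.71 ± 0.14 on slide 1 (adjusted p = 0.0408) and by 0.49 ± 0.15 between the transgenic water groups of slides 3 and 1. Siglech, a sialic acid-binding lectin, was at 6.17, 6.49, 6.21, 6.31 and 6.40 in treated arrays, against 4.75, 4.78, 4.69, 4.53 and 4.43 in wild-type arrays. Those groups were wide apart (1.68 ± 0.20), yet the transgenic water groups of slides 3 and 1 differed by 1.59 ± 0.26 (adjusted p = 0.000193) and the within-slide sum was 0.60 ± 0.34 (adjusted p = 0.766). Itgam, the integrin CD11b, differed by 1.29 ± 0.14, with 0.95 ± 0.18 between those water groups and 0.16 ± 0.24 in the within-slide sum. Those water groups differ in slide, age and washout, which cannot be told apart.

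Of 20 genes of complement, Fc receptors and antigen presentation, 9 were higher and 0 lower, where 23.6% and 12.4% of all features were. The list's median was 0.68, with 0.46 in the within-slide sum and 0.51 on slide 1, where 2 were higher. C4b, a complement component made by glia, was at 3.55, 3.61, 3.82, 4.12 and 4.15 in treated arrays, against 2.54, 2.55, 2.75, 2.44 and 2.62 in wild-type arrays. The groups did not overlap. The difference was 1.27 ± 0.15 (adjusted p = 9.63e-07), against 1.14 on slide 1 (adjusted p = 0.00575) and 1.14 in the within-slide sum (adjusted p = 0.114). The inhibitory Fc receptor Fcgr2b differed by 1.20 ± 0.19 (adjusted p = 3.97e-05; slide 1 1.30 ± 0.23, adjusted p = 0.0194), and C3ar1, the receptor of the complement fragment C3a, by 1.49 ± 0.21 (adjusted p = 8.34e-06; slide 1 0.80 ± 0.25, adjusted p = 0.445).

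Among 17 interferon response genes 6 were higher and 1 lower (median 0.54), where 23.6% and 12.4% of all features were higher and lower. In the deposited standardized values 2 were higher and 2 lower, and 0 passed on slide 1 or in the within-slide sum. The antiviral synthetase Oas1a was at -1.81, -2.30, -1.41, -1.66 and -1.80 in treated arrays, against -2.81, -2.44, -2.79, -2.80 and -2.54 in wild-type arrays (0.88 ± 0.21, adjusted p = 0.00259). Its groups were close but did not overlap. Isg15, a ubiquitin-like interferon product, differed by 0.81 ± 0.20 (adjusted p = 0.00346). Usp18, the protease that removes Isg15 from proteins, ranged from -3.78 to -0.91 in treated arrays and from -4.37 to -3.46 in wild-type arrays (1.29 ± 0.40, adjusted p = 0.0147), and those ranges overlapped. In the deposited standardized values neither Oas1a nor Usp18 passed, nor did Usp18 with the arrays of row 2 alone. The lower gene was Stat2, a transcription factor of interferon signalling (-0.33 ± 0.10, adjusted p = 0.0125).

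Of 15 reactive astrocyte genes 8 were higher, 0 lower and 7 did not pass (median 0.50, 0.49 in the within-slide sum, 0.50 on slide 1, where 2 were higher), beside 23.6% of all features higher. The list gave 5 higher with the arrays of row 2 alone, and 2 higher and 1 lower in the deposited standardized values. Gfap was at 2.90, 2.89, 2.59, 3.67 and 3.38 in treated arrays, against 1.93, 2.08, 2.35, 2.21 and 2.32 in wild-type arrays. The lowest treated array lay just above the highest wild-type array. Its difference was 0.91 ± 0.16 (1.88-fold, adjusted p = 0.000151), 0.95 on slide 1 (adjusted p = 0.053) and 0.99 in the within-slide sum (adjusted p = 0.342). Osmr, the oncostatin M receptor, differed by 0.50 ± 0.12 (adjusted p = 0.00216) and by 0.88 ± 0.14 on slide 1 (adjusted p = 0.00793). Cd44, a hyaluronan receptor, differed by 1.17 ± 0.29 (adjusted p = 0.00333) but by -0.18 ± 0.48 in the within-slide sum, and it did not pass in the deposited standardized values or with the arrays of row 2 alone. Serpina3n, a protease inhibitor often used as a reactive astrocyte marker and named here after its value was seen, differed by 0.01 and did not pass. Of 14 genes of astrocyte identity 1 was higher and 1 lower (median -0.04). The number lower was 4 without APP-PS1_UA-WASHOUT replicate 3, and 2 without treated replicate 2, WT_WASHOUT replicate 2 or WT_WASHOUT replicate 5. Apoe, the lipid carrier of astrocytes, is counted in the plaque-associated microglia list above and in neither astrocyte list. Its difference was 0.36 (adjusted p = 0.00456), with 0.03 on slide 1 and -0.08 after quantile scaling.

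Immediate early genes, which neurons switch on within minutes of activity, were lower in the treated arrays. Of 20 genes 14 were lower and 1 higher, with a median of -0.95, where 12.4% of all features were lower and 23.6% higher. In 7 of the 20 all treated arrays lay below all wild-type arrays, which holds for 7.13% of all features. The list's mean level was 0.11, 0.42, 0.06, 0.37 and 1.01 in the treated arrays, against 1.40, 1.30, 1.39, 1.36 and 1.22 in the wild-type arrays. The wild-type arrays lay close together, and treated replicate 5 was the treated array nearest to them. Across the groups the mean level of the list was 0.39 in APP-PS1_UA-WASHOUT, 0.56 in APP-PS1_WASHOUT, 0.43 in APP-PS1_UA, 0.35 in APP-PS1_CTR, 0.50 in WT_CTR and 1.33 in WT_WASHOUT. WT_WASHOUT was thus the group that stood apart. APP-PS1_WASHOUT against the same WT_WASHOUT arrays gave a median of -0.67, with 11 of 20 genes lower, where 7.67% of all features were lower.

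The same genes gave smaller differences on slide 1 and in the within-slide sum, which hold no WT_WASHOUT array. On slide 1 the median was -0.12, and in the within-slide sum it was -0.36 with 0 genes passing. Within slide 2 the 3 APP-PS1_UA arrays, from before the washout, gave a median of -0.78 against the same WT_WASHOUT arrays, with 19 of 20 genes negative. That contrast was fitted to the arrays of slide 2 alone, so fewer arrays entered. In it 0 genes of the list passed, beside 0.0170% of all features. WT_WASHOUT minus WT_CTR, on slides 2 and 1, gave a median of 0.75. Age, washout, slide and the handling of the mice before collection cannot be told apart for WT_WASHOUT.

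Regulation of these genes by activity is known to pass through the cyclic AMP response element, bound by CREB, and the CArG box, bound by serum response factor. Promoters are shown for those members in which a match to a strict form of either motif was found. RefSeq promoters (GRCm38.p6) were matched to 15 of the 20 genes, and the 250 bases before the start were searched for TGACGTCA and for the CArG box consensus of 10 bases. Both motifs read alike on either strand, and they do not overlap in these promoters. The first was found in 2 of the 19 promoters of these genes (10.5%) and the second in 4 of 19 (21.1%), all of them listed for Egr2, against 1.55% and 1.47% of all 32851 promoters in the table. Counted by gene, the first fell in 2 of 15 and the second in 1 of 15. Some listed Egr2 promoters overlap, so the same site is counted more than once in the 21.1%. The promoters run 5′ to 3′ on the gene's strand, with the motif in capitals: Egr2 at chr10:67537619-67537868 (plus strand, motif starting 72 bases before the start, chosen from 4 listed starts), Dusp1 at chr17:26508473-26508722 (minus strand, 143 bases before) and Btg2 at chr1:134079156-134079405 (minus strand, 166 bases before).
Egr2: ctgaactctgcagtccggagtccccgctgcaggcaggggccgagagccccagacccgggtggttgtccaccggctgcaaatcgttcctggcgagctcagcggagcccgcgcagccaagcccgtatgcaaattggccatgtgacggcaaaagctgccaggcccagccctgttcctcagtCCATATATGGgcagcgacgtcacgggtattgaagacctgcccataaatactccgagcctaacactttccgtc
Dusp1: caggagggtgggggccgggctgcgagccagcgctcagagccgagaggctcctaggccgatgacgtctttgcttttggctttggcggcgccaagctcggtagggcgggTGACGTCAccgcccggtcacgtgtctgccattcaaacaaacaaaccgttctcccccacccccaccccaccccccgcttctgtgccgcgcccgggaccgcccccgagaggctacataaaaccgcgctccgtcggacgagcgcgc
Btg2: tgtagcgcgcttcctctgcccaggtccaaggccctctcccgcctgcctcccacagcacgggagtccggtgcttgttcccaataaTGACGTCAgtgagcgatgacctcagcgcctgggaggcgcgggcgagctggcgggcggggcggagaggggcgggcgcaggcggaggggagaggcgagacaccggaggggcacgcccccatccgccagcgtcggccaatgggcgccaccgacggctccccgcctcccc
A match describes these letters only.

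Egr2, a zinc-finger transcription factor whose promoter holds the CArG match, was at -2.77, -2.16, -2.44, -1.81 and -0.51 in treated arrays, against 0.21, 0.48, 1.13, 0.39 and 1.03 in wild-type arrays. No treated array reached the wild-type range. The difference was -2.59 ± 0.51 (adjusted p = 0.000402), with -1.27 in the within-slide sum (adjusted p = 0.808) and 2.28 for WT_WASHOUT minus WT_CTR. Dusp1, a phosphatase that switches off MAP kinases and whose promoter holds a TGACGTCA, was at 0.03, 0.51, 0.17, 0.10 and 1.39 in treated arrays, against 1.73, 1.99, 1.86, 1.88 and 1.78 in wild-type arrays. The gap was again narrowest for treated replicate 5. Its difference was -1.41 ± 0.25 (adjusted p = 0.000176), with a within-slide sum of 0.00. Btg2, an antiproliferative gene with the same motif, ranged from -1.74 to -0.37 in treated arrays, against -0.57 to 0.63 in wild-type arrays (-1.09, adjusted p = 0.00231), and treated replicate 5 lay inside the wild-type range.

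Fos, a subunit of the AP-1 transcription factor, was at -1.32, -0.34, -1.04, -0.35 and 1.01 in treated arrays, against 1.53, 1.50, 1.73, 1.52 and 1.38 in wild-type arrays. The treated arrays scattered widely below a tight wild-type group. The difference was -1.94 ± 0.44 (adjusted p = 0.0015), and WT_WASHOUT minus WT_CTR was 1.87. Arc, which controls AMPA receptor traffic at synapses, was at 2.04, 2.22, 1.58, 3.02 and 3.98 in treated arrays, against 4.14, 3.86, 4.57, 4.21 and 4.30 in wild-type arrays (-1.65 ± 0.36, adjusted p = 0.00106). Treated replicate 5 reached the lowest wild-type array. Outside the list, the vascular early gene Apold1 differed by -1.79 ± 0.22 (adjusted p = 1.87e-06) and the stress-responsive gene Depp1 by -1.49 ± 0.19 (adjusted p = 3.17e-06). For Apold1 and Depp1 the WT_WASHOUT minus WT_CTR differences, 1.39 ± 0.23 (adjusted p = 0.0437) and 1.23 ± 0.20 (adjusted p = 0.0391), also passed, as did 0.0170% of all features. Npas4, a neuron-specific activity-induced transcription factor, differed by -1.01 (adjusted p = 0.119) and by -1.30 without treated replicate 5 (adjusted p = 0.0497). The higher member was Nr4a3, an orphan nuclear receptor (0.44 ± 0.16, adjusted p = 0.0362), which also differed by 0.60 ± 0.21 between the transgenic water groups of slides 3 and 1.

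**Figure D3:**
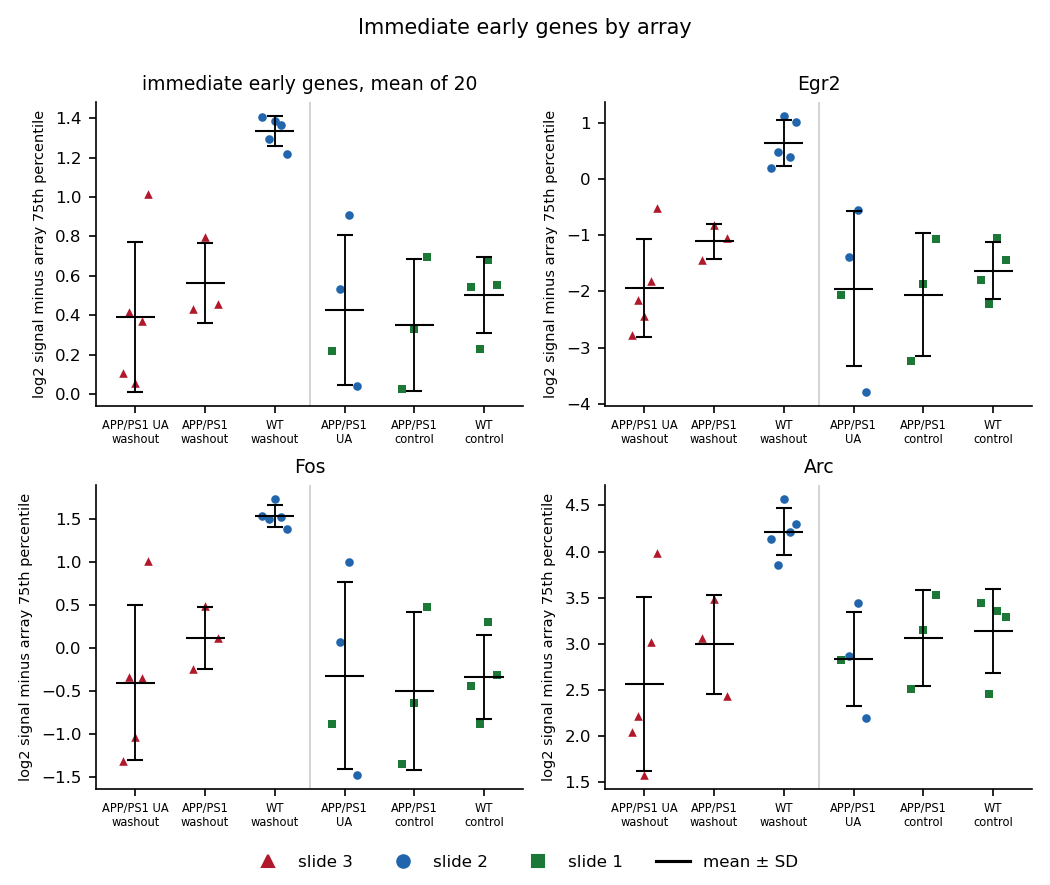
Mean level of the 20 immediate early genes and levels of Egr2, Fos and Arc (log2 signal minus the array's 75th percentile, vertical axes) on every array of the 6 groups, with colours and marker shapes for the 3 slides and bars for mean ± SD. The WT_WASHOUT arrays lie highest in the mean of the list, at 1.22 to 1.40, against 0.06 to 1.01 in APP-PS1_UA-WASHOUT.

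The counts in neuronal lists lay near or below the shares over all features (23.6% higher, 12.4% lower). Of 20 glutamatergic synapse genes 4 were higher and 2 lower (median -0.06), against 7 higher and 1 lower in the deposited standardized values. Of 16 interneuron genes 1 was higher and 2 lower (median -0.09), and of 17 genes of hippocampal subfields and dentate gyrus 0 passed in either direction (median -0.21), against 1 higher and 3 lower in the deposited standardized values. The mean level of markers of hippocampal neurons ranged from 1.38 to 2.09 in treated arrays and from 1.56 to 1.90 in wild-type arrays. For interneuron markers it ranged from 3.64 to 3.94 in treated arrays and from 3.71 to 4.01 in wild-type arrays. Snap25, a protein of vesicle fusion, was at 5.70, 5.76, 5.59, 5.83 and 5.96 in treated arrays, against 5.31, 5.00, 5.05, 5.04 and 4.80 in wild-type arrays (0.73 ± 0.14, adjusted p = 0.000286). The groups were apart, but a second Snap25 probe differed by -0.21, the within-slide sum was -0.02 ± 0.23, and the transgenic water groups of slides 3 and 1 differed by 0.61 ± 0.18. Lhx6, a transcription factor of interneurons, was at 3.01, 2.70, 2.70, 3.35 and 3.46 in treated arrays, against 4.42, 4.06, 4.16, 3.95 and 4.05 in wild-type arrays (-1.08 ± 0.15, adjusted p = 7.46e-06). That difference too had its like between the water groups of slides 3 and 1 (-1.31 ± 0.19), with a within-slide sum of 0.13 ± 0.25. Gad1, which makes GABA, differed by -0.58 ± 0.09 (adjusted p = 5.25e-05) and by -0.26 ± 0.16 in the within-slide sum, and the neuropeptide gene Sst by 0.57 ± 0.14 (adjusted p = 0.00247) and 0.01 ± 0.23. Sst did not pass after quantile scaling, nor Snap25 when probes of a gene were averaged.

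Among lists near the known actions of urolithin A, the direct counts lay near or below the shares over all features (23.6% higher, 12.4% lower), except for the lower members of the mitochondrial and receptor target lists below. Of 29 autophagy and mitophagy genes 4 were higher and 4 lower (median 0.01), against 8 higher and 6 lower in the deposited standardized values and 7 lower after quantile scaling. Nbr1, an autophagy cargo receptor, differed by 0.40 ± 0.07 (adjusted p = 0.000125) and by -0.02 ± 0.12 in the within-slide sum, and turned to -0.00 in the deposited standardized values. The kinase genes Pink1 (0.12) and Ulk1 (-0.06), which start mitophagy and autophagy, did not pass.

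Of 28 lysosomal genes 6 were higher and 3 lower (median 0.13), shares close to those over all features, and in the deposited standardized values 13 were higher and 2 lower. Gla, the lysosomal alpha-galactosidase, was at 6.93, 7.15, 6.97, 6.97 and 7.19 in treated arrays, against 6.08, 6.01, 6.02, 5.97 and 5.74 in wild-type arrays. The groups were clearly apart. The difference was 1.08 ± 0.10 (adjusted p = 4.38e-08), while the transgenic water groups of slides 3 and 1 differed by 0.77 ± 0.13 (adjusted p = 0.000186) and the within-slide sum was 0.44 ± 0.16 (adjusted p = 0.541). Npc1, which exports cholesterol from lysosomes, differed by -0.54 ± 0.10 (adjusted p = 0.000252) and by -0.21 ± 0.17 in the within-slide sum.

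Of 28 oxidative phosphorylation genes 5 were higher and 3 lower (median -0.01). The number higher turned on single arrays, at 1 without treated replicate 2, WT_WASHOUT replicate 2 or WT_WASHOUT replicate 5, and at 2 without treated replicate 3 or 4 or WT_WASHOUT replicate 1 or 3. The number lower was 1 without treated replicate 1 or 4 or WT_WASHOUT replicate 5. After quantile scaling 1 was higher and 6 lower, and in the deposited standardized values 19 were higher and 0 lower, so no direction holds for these genes across scalings. Of 16 genes of mitochondrial biogenesis and dynamics 0 were higher and 3 lower (median -0.10), and in the deposited standardized values 3 were higher and 4 lower. Among the lower genes were Tfam, which packages mitochondrial DNA (-0.33 ± 0.09, adjusted p = 0.00615), and the deacetylase Sirt1 (-0.49 ± 0.12, adjusted p = 0.00351). Their within-slide sums were 0.01 ± 0.15 and 0.07 ± 0.20, and Sirt1 did not pass when its probes were averaged.

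Targets of the aryl hydrocarbon receptor, which gut metabolites can activate, and of the antioxidant factor NRF2 gave 0 higher and 3 lower of 15 (median -0.17, 0.05 in the within-slide sum), where 12.4% of all features were lower. In the deposited standardized values 8 of the 15 were lower. Tiparp, an ADP-ribosyltransferase that dampens the receptor, was at -0.41, -0.52, -0.35, -0.20 and 0.00 in treated arrays, against 0.37, 0.58, 0.93, 0.66 and 0.91 in wild-type arrays. Each treated array lay below each wild-type array. The difference was -0.98 ± 0.11 (adjusted p = 3.4e-07) and the within-slide sum -0.32 ± 0.18 (adjusted p = 0.755). Gclc, which makes glutathione, differed by -0.45 ± 0.08 (adjusted p = 8.84e-05) and by -0.10 ± 0.13 in the within-slide sum. Cyp1a1, the receptor's best known target, was well above background on only 3 arrays of the series, and no fold is given.

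Beside the next lists stand the shares over all features, 23.6% higher and 12.4% lower. Of 15 integrated stress response genes 5 were higher and 1 lower (median 0.05), against 4 higher and 4 lower in the deposited standardized values. The number higher was 3 without treated replicate 1 or 4 or WT_WASHOUT replicate 2, 4 or 5. Sesn2, a stress sensor that restrains mTORC1, differed by 0.49 ± 0.12 (adjusted p = 0.00296), by -0.33 ± 0.20 in the within-slide sum and by 0.82 ± 0.16 between the transgenic water groups of slides 3 and 1. Of 15 heat shock genes 1 was higher and 5 lower (median -0.10), against 4 higher and 4 lower in the deposited standardized values, and the list's median was 0.26 for WT_WASHOUT minus WT_CTR. Dnajb1, a co-chaperone of Hsp70, was at 3.18, 3.36, 3.42, 3.19 and 3.68 in treated arrays, against 3.86, 4.28, 4.22, 4.48 and 4.49 in wild-type arrays (-0.90 ± 0.13, adjusted p = 1.4e-05). Its arrays did not overlap between groups, and WT_WASHOUT minus WT_CTR was 0.68 ± 0.14 (adjusted p = 0.181). Of 16 cholesterol genes 1 was higher and 2 lower. That lower count was 0 without treated replicate 5 or WT_WASHOUT replicate 4, and 1 without treated replicate 1, 2 or 4 or WT_WASHOUT replicate 1 or 3, and the higher count was 2 without WT_WASHOUT replicate 1. Of 19 ribosomal protein genes 9 were higher and 2 lower (median 0.14), against 3 higher and 8 lower after quantile scaling, so their direction flips with the scaling. In the deposited standardized values the counts higher and lower were 17 and 0 for ribosomal protein genes, 2 and 4 for cholesterol genes, 5 and 1 for astrocyte identity, 2 and 5 for oligodendrocytes and myelin, 1 and 4 for endothelium and 4 and 3 for amyloid precursor processing.

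**Figure D4:**
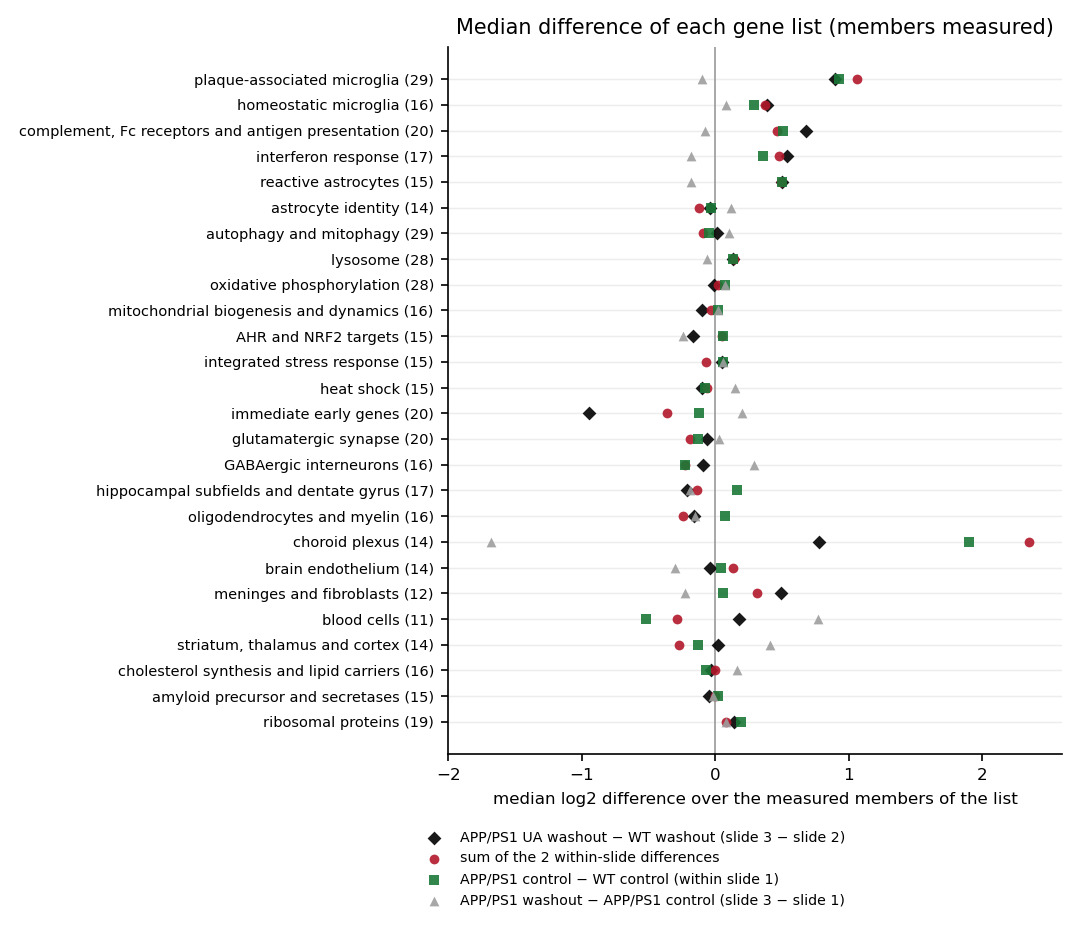
Median log2 difference of each of 26 gene lists (horizontal axis) in the direct comparison of treated APP/PS1 and wild type after washout, in the within-slide sum, in the genotype difference on slide 1 and between the transgenic water groups of slides 3 and 1. Plaque-associated microglia stand at 0.90, 1.06, 0.93 and -0.10 in that order, and immediate early genes at -0.95, -0.36, -0.12 and 0.20.

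Markers of tissue that a dissection can carry along varied between arrays of both groups. Beside the counts below, 23.6% of all features were higher and 12.4% lower in the direct comparison. Of 14 choroid plexus genes 0 passed (median 0.78). That median turned on single arrays, at 0.13 to 0.48 without WT_WASHOUT replicate 1 or 4 or treated replicate 1, 3 or 4, and at 1.45 to 1.85 without treated replicate 2 or 5 or WT_WASHOUT replicate 3 or 5. In the within-slide sum the list had a median of 2.35 and on slide 1 of 1.90, with 14 of 14 genes positive and 0 passing in each, so choroid plexus markers differed in the same direction as the plaque-associated genes in these comparisons, and their part in the results was not tested. Ttr, the transthyretin gene that marks this tissue, was at 7.14, 1.78, 6.97, 7.26 and 3.10 in treated arrays, against 0.78, 4.03, 6.36, 0.68 and 6.36 in wild-type arrays. Some arrays of each group were high and others low, and the difference of 1.61 did not pass (adjusted p = 0.44). Of 12 genes of meninges and fibroblasts 0 passed, of 14 endothelial genes 1 was lower, of 11 blood cell genes 1 was higher, and of 16 oligodendrocyte and myelin genes 1 was higher and 2 lower. The lower endothelial count was 2 without treated replicate 2 or 3 or WT_WASHOUT replicate 1, and the blood cell count was 2 without treated replicate 3 or WT_WASHOUT replicate 5. The blood cell gene was Cd3e, a chain of the T cell receptor complex (1.45 ± 0.17, adjusted p = 1.38e-06), with -0.06 ± 0.29 in the within-slide sum and 1.18 ± 0.22 between the transgenic water groups of slides 3 and 1. Of 14 marker genes of striatum, thalamus and cortex 2 were higher and 1 lower (median 0.02). The mean level of 5 microglial markers ranged from 1.92 to 2.28 in treated arrays, against 1.37 to 1.84 in wild-type arrays, and astrocyte markers from 2.05 to 2.21, against 1.83 to 2.43.

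Next to Cst7, the largest differences of bright probes were those of Plaat5, Vax2 and Dct, whose levels also differed between the transgenic water groups of slides 3 and 1. Vax2, a homeobox factor of the developing eye, was at 1.72, 1.41, 1.15, 1.74 and 1.39 in treated arrays, against -3.94, -4.01, -4.12, -4.13 and -4.34 in wild-type arrays (5.59), with a within-slide sum of 1.05 (adjusted p = 0.447). The phospholipase gene Plaat5 (6.11 ± 0.28), the melanin synthesis gene Dct (5.11 ± 0.35) and the neutrophil elastase gene Elane (4.62) were likewise far higher in treated arrays. Plaat5 and Dct had within-slide sums of 0.91 ± 0.48 and 0.94 ± 0.59, and differed by 4.91 ± 0.38 and 3.49 ± 0.46 between the transgenic water groups of slides 3 and 1. A second probe of Dct differed by 0.69 in the direct comparison. Among the largest decreases, beside the early genes and Wdfy1, Slc8a3, a sodium-calcium exchanger, was at 2.40, 1.83, 1.87, 3.10 and 2.87 in treated arrays, against 4.34, 4.00, 4.11, 3.75 and 3.77 in wild-type arrays (-1.58, within-slide sum 0.08). The Werner helicase gene Wrn was at 1.44, 0.94, 0.93, 1.98 and 1.99 in treated arrays, against 3.33, 3.02, 3.09, 2.81 and 2.89 in wild-type arrays (-1.57, within-slide sum 0.08), and did not pass when its probes were averaged. Treated replicates 4 and 5 were the closest to wild type for both genes, which differed by -1.81 and -1.82 between those water groups.

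Some gene families not known for expression in hippocampus had a large share of their members higher in treated arrays. They were grouped after their values were seen, and most of the olfactory and vomeronasal genes are dim, with 59 of 266 and 14 of 63 bright on all 24 arrays, so a gene may have been kept only through the group where it is high. Of the bright ones, 40 of 59 olfactory receptor genes, 9 of 14 vomeronasal receptor genes and 17 of 21 bright keratin-associated protein genes were higher in treated arrays, where 17.9% of all bright features were. Between the transgenic water groups of slides 3 and 1, 37 of the 59 bright olfactory receptor genes were higher (16.9% of all features were), and in the within-slide sum 0 of all 266. Dimness went with the direction, since 44.9% of the dimmest of 4 equal classes of features were higher and 4.48% lower in treated arrays, against 12.4% higher and 19.5% lower in the brightest class. Probes of the same gene often disagreed. Of 6108 genes with a symbol that passed, 2046 had several kept probes, and in 778 of these (38.0%) the probes included differences of opposite sign. Among the 44 genes that passed in the same direction on slide 1, 17 had several probes and 2 of them (11.8%) had opposite signs. For the 14 genes that passed in the within-slide sum and in the same direction directly, 5 had several probes and 2 (40.0%) had opposite signs. Probes lay over 1 log2 unit apart in 16.3% of the 2046 genes and in 17.6% of the 17 genes from slide 1.

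**Figure D5:**
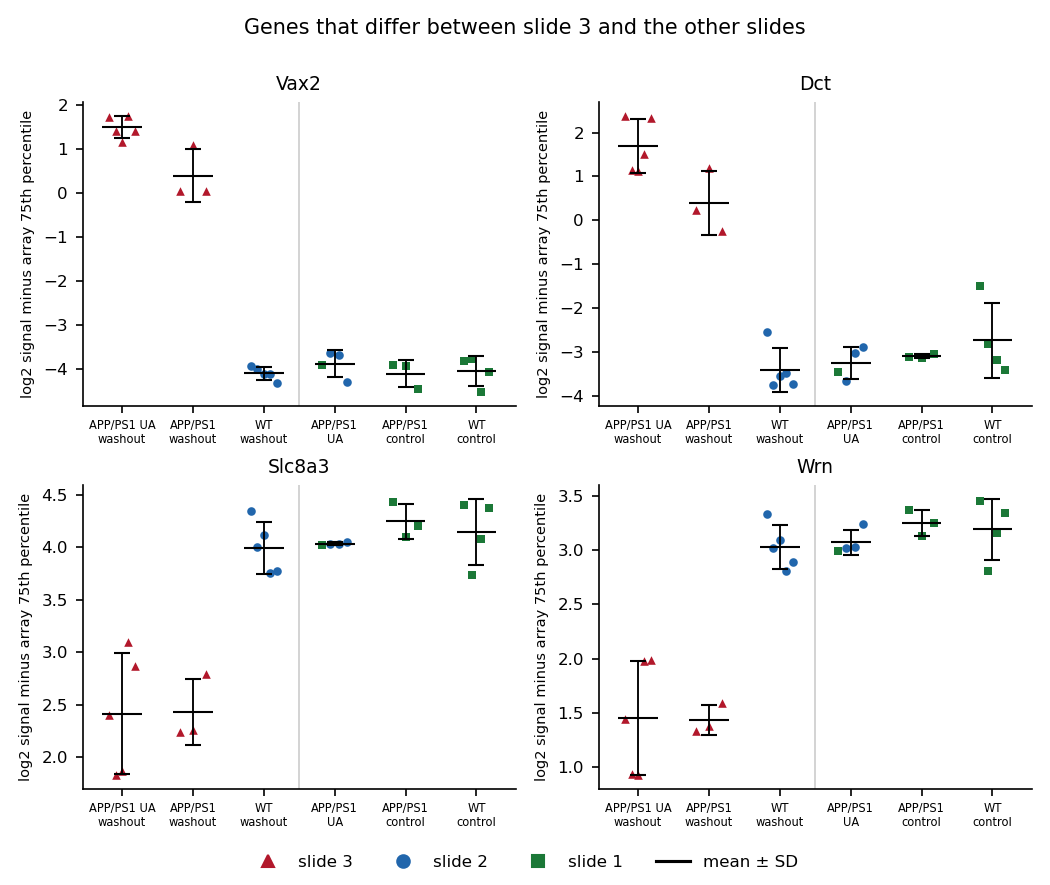
Levels of Vax2, Dct, Slc8a3 and Wrn (log2 signal minus the array's 75th percentile, vertical axes) on every array of the 6 groups, with colours and marker shapes for the 3 slides and bars for mean ± SD. Arrays of slide 3, transgenic with and without urolithin A, lie apart from all other arrays, and transgenic arrays of the other slides lie with the wild-type arrays. Within slide 3 the treated mean was above the water mean by 1.10 for Vax2 and 1.30 for Dct, and neither difference passed.

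Against the water-treated transgenic arrays on their own slide, APP-PS1_UA-WASHOUT minus APP-PS1_WASHOUT, 0 members of the plaque-associated microglia list passed in either direction (median 0.11), and 0 members passed in each of the other 25 lists, where 0.0624% of all features passed. List medians farther from 0 were those of choroid plexus (0.37, 13 of 14 genes positive), oligodendrocytes and myelin (-0.32, 15 of 16 negative), meninges and fibroblasts (0.21) and hippocampal subfields (-0.19). Cst7 differed by 0.43 ± 0.35 (adjusted p = 0.852) and Itgax by 0.45 ± 0.31 (adjusted p = 0.802). A p-value above the threshold does not show that the groups were alike. These groups also differed in array row, as given above, and its part was not tested.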

How the data were processed

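Hippocampal RNA was labelled with Cy3 and hybridised to Agilent one-colour arrays. Per the file headers, the deposited scanner files hold spot intensity values from Feature Extraction (version 12.0.3.1). The processed signal has the background of its own array subtracted, with no scaling across arrays. Values of the deposited series matrix are a score, the log of that signal standardized within each array (largest difference from this 0.005; column medians from -0.17 to -0.06); its log base is unknown.

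From the processed signal, spots with an outlier flag were left out, log2 values were averaged per probe, and the 75th percentile of the array was taken off. Probes well above background on at least 3 arrays were kept (43988 of 56605), a gene was represented by its brightest kept probe, and probes without a symbol stayed as they were, which gave 18566 genes and 16693 unnamed probes. Each group needed 2 unflagged values. limma 3.58.1 in R 4.3.3 fitted 6 group means to all 24 arrays (lmFit, eBayes), so all groups share the estimate of the spread, with Benjamini-Hochberg adjustment per contrast. The contrast within slide 2 was instead fitted to the arrays of that slide alone, with its own estimate of the spread. The code was tested on simulated data. Named genes were the largest bright differences whose groups did not overlap, up to 4 called members of each list, a fixed set of markers, and genes also called within slide 1 or slide 3. Members and lists were chosen with earlier results of these data known. The normexp alternative used the median spot signal (offset 50), since the mean signal was not among the columns used. The number of arrays limits the precision. Slides and array rows were read from the file headers. Some genes of the lists are not reported here.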

Additional observations from a re-analysis of the deposited data

Results flagged for a closer look

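In 301 groups of 5 values, 10 had an array far from the other 4 of its group by Dixon's test (critical value 0.71). Chance alone is known to mark a small share of such groups. Whether 10 of 301 exceeds that share was not tested, so the arrays below are listed for their values only. In APP-PS1_UA-WASHOUT, replicate 5 had a level of -1.79 for Wfdc13, against -0.75 to -0.44 on the other treated arrays, and of -1.25 for the immediate early gene Ier2, against -2.17 to -1.95. Replicate 3 had a mean level of 3.16 for the glutamatergic synapse list, against 3.31 to 3.35. In WT_WASHOUT, replicate 1, which lay in array row 1 while replicates 2 to 5 lay in row 2, was high for 3 genes. These genes were far lower in wild type than in the treated arrays. Replicate 1 had -3.39 for Plaat5 (others -4.27 to -4.06), -2.54 for Dct (others -3.75 to -3.49) and -2.26 for Elane (others -3.07 to -2.84). The same array was low for the chaperone gene Hspa1b, at -0.61 against 0.61 to 0.82 on the other wild-type arrays, and for the mean of the heat shock list, at 3.10 against 3.30 to 3.36. WT_WASHOUT replicate 5 had -5.00 for the complement receptor C5ar1 (others -5.84 to -5.62), and WT_WASHOUT replicate 4 had 4.21 for cytochrome c, Cycs (others 4.43 to 4.48).

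The difference between APP-PS1_UA-WASHOUT and WT_WASHOUT was itself tested against the difference between APP-PS1_CTR and WT_CTR in the limma model, and 6815 features (19.3%) passed an adjusted p of 0.05. The first difference spans slides 3 and 2 and the second lies within slide 1, so slide, treatment, age and washout cannot be told apart in this count.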

How the results depend on the processing

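Of 12681 features called, 8317 were higher and 4364 lower. The count was 23 (14 higher, 9 lower) in the within-slide sum, which was chosen after seeing the data and in which slide does not enter a step, and 21637 (17109 higher) with no filter on dim probes, where more features were tested. With probes well above background on all 24 arrays 4627 were higher, out of fewer features tested. The lower count was 2687 with array row 2 alone, where fewer arrays entered, 8654 after quantile scaling and 12279 in the deposited series matrix; the cause of the last 2 was not tested. With a replicate block on the 10 arrays 9010 were called (6713 higher, 2297 lower), against 10819 without the block. The correlation of same-numbered arrays ran from -0.22 to 0.12, with 1 of 5 over 0.1, and 1 of 5 treated arrays correlated best with its own number, so the numbers do not pair the arrays. Slide as a random block gave 15624 calls at a consensus correlation of -0.0575, and normexp gave 9618. Leaving out 1 array gave 11502 to 12986 calls, 7674 to 8619 higher and 3738 to 4389 lower. Of 126 named genes, 117 were called, and 13 changed their call without 1 array, among them Ambra1, Hspa8, Hspa1b, Mag, Rsad2 and Vldlr.

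In the within-slide sum 14 named genes passed in the same direction, 72 kept the direction but missed the threshold, 1 passed only there, 8 passed in neither, and 31 that passed in either turned sign. Those that turned from higher were Wfdc13 (-0.50), Ifi27l2a (-0.06), Cd44 (-0.18), Nbr1 (-0.02), Ambra1 (-0.25), Sesn2 (-0.33), Hspa8 (-0.06), Snap25 (-0.02), Mag (-0.13), Cd3e (-0.06), Drd2 (-0.36), Lef1 (-0.13), Tbpl2 (-3.40), Olfr1314 (-2.35), Cxcr1 (-2.80) and Psg27 (-2.06). Those that turned from lower were Slc8a3 (0.08), Wrn (0.08), Dusp1 (0.00), Oacyl (0.19), Atp5c1 (0.04), Sirt1 (0.07), Tfam (0.01), Ahrr (0.05), Gria2 (0.16), Lhx6 (0.13), Flt1 (0.02), Idi1 (0.06), Hmgcs1 (0.01), Mme (0.35) and Aph1b (0.14). The sign also turned for Wdfy1 (0.50), Cox7c (0.19) and Hspa8 (-0.01) with the mean of a gene's probes, for Tbpl2 (-0.12) and Psg27 (-0.03) with normexp, for Clu (-0.18), Apoe (-0.08), Tbpl2 (-0.04), Psg27 (-0.02) and Bcl2a1c (-0.00) after quantile scaling, and for Nbr1 (-0.00), Atp5c1 (0.05), Cycs (0.02), Gria2 (0.02) and Bcl2a1c (-0.03) in the deposited series matrix. The cause was not tested. Tbpl2, Olfr1314, Cxcr1 and Psg27 were well above background on 3 arrays only, and Drd2 on 12.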
